A study of Mus musculus with 36 samples.

Results

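Both arms of a pair of intronic miRNA hairpins, miR-139 and miR-140, were followed through induction of the transcription factor Ikaros in mouse pre-B cells. The members are miR-139-5p, miR-139-3p, miR-140-5p and miR-140-3p, which makes 4 of the 469 miRNAs measured. They were selected on their measured log2 values in the Ikaros line, where earlier results of these data had the miR-139 arms going down and the miR-140 arms going up. Their direction in that line is therefore a description and carries no test. In the deposited values the means of 24 h against 0 h had these opposite directions. For miR-140, however, the samples of these times overlapped in both arms.

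Small RNA was sequenced from B3, a mouse pre-B cell line. MSCV retroviral vectors gave one derivative haemagglutinin-tagged Ikaros joined to the estrogen receptor's ligand-binding part (HA-Ikaros-ERt2, then IRES and GFP), and the control derivative ERt2 without Ikaros. The labels give 4-hydroxy-tamoxifen (4-OHT) at 0.5 uM for every sample of both lines, whereas the methods describe 0 h as untreated. By the paper, the drug sets how much of the Ikaros fusion protein is in the nucleus. The control line is there to account for the drug's own effect. Each line was sampled at 0, 2, 6, 12, 18 and 24 h with 3 replicates, numbered 1, 2 and 4, which gave 36 samples in 12 groups. Ikaros expression is driven by the viral vector, and the labels name one transduced line for each construct, so the replicates are cultures of a line and not separate derivations. Samples with the same time and number share a culture batch across the lines, and 0 h came from other culture batches (4, 5 and 6) than the later times (1, 2 and 3). By the study's design, sequencing fell into a pair of batches. The first took most Ikaros samples together with the controls of the first and last time, and the second took most controls from between, so at 2 h to 18 h the lines and the sequencing batches cannot be told apart beyond what the authors corrected. Some samples were sequenced in both batches for the authors to estimate and correct the batch effect.

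An miRNA hairpin is cut by Drosha and Dicer into a short duplex of its 5p and 3p arms. One arm is usually loaded into Argonaute and guides it to messenger RNAs through its seed, bases 2 to 8, while the other arm is mostly degraded. The ratio of the arms therefore depends on arm choice and arm stability, and changes of transcription or of hairpin processing act on both arms together. Mir139 lies in an intron of Pde2a, a phosphodiesterase that degrades cyclic nucleotides. Mir140 lies in an intron of Wwp2, a ubiquitin ligase, and is best known for its high level in cartilage. Ikaros is a zinc finger factor of lymphocytes that restrains the pre-B cell's growth and favours its differentiation.

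The mature sequences of 3 of the 4 members and both hairpins are given here from RefSeq (GRCm38.p6), because the seeds decide which messages an arm can guide to and the hairpins show how the arms lie. Capitals mark the seed in the mature sequences.
mmu-miR-139-5p: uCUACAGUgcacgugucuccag
mmu-miR-139-3p: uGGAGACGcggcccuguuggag
mmu-miR-140-3p: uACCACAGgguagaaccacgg
In the hairpins, capitals mark the mature arms that the RefSeq table lists.
Mir139: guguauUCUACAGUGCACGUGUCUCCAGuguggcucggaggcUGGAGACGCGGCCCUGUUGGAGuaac
Mir140: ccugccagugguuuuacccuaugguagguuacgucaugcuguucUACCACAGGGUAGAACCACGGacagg

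The Mir139 hairpin lies on the plus strand at chr7:101475376-101475443 (GRCm38), 68 bases long, in intron 2 of 4 protein-coding Pde2a transcripts. It is 23907 bases from the upstream exon and 5927 bases from the downstream exon. The Mir140 hairpin lies on the plus strand at chr8:107551244-107551313, 70 bases long, in intron 16 of transcript Wwp2-201. Its distances are 1108 bases to the upstream exon and 963 bases to the downstream exon. The arms miR-139-5p and miR-139-3p have GC contents of 54.5% and 68.2%, and miR-140-3p one of 57.1%, against a median of 50% over the 391 measured miRNAs whose names matched the RefSeq table. The 3 seeds differ from each other. Among the 391 matched miRNAs no other one carries any of them, and 78 measured miRNAs had no matched sequence. In the RefSeq table only miR-497b shares the seed of miR-140-3p.

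Values are log2 levels after normalization and batch correction by the authors, and 1 unit is a doubling. They ranged from 0.09 to 19.30 over all miRNAs and samples. The table gives no counts, so the depth is unknown. Of the 9 names of the lymphoid and haematopoietic markers, 7 were listed. Their means ran from 3.90 (miR-150-5p) to 18.45 (miR-191-5p), with miR-181a-5p at 18.15. None of the 4 erythroid names and the 1 liver name was listed. Of the 2 endothelial names neither was listed under the spelling searched, but the table holds miR-126a-3p, the current name of that marker, which was looked up after its values were seen. It ranged from 5.30 to 7.62, with a mean of 5.86 in the control line and 7.13 in the Ikaros line. Its part in the results below was not tested. The myeloid miR-223-3p had a mean of 2.11, the mesenchymal and muscle list had 1 of 9 names (miR-143-3p, 1.13) and the epithelial list 4 of 5 (means of 1.52 to 4.74). The neural list had 1 of 2 names, miR-9-5p, at a mean of 13.30. In 4 libraries a miRNA exceeded 19, namely Ikaros replicate 4 at 2 h and 12 h and replicate 1 at 6 h (miR-10a-5p) and control replicate 2 at 12 h (miR-191-5p). The line differences of 2 h, 6 h and 12 h, which hold these libraries, are given with and without them. Leaving them out kept the same-batch sample of the other line, so these values are not differences within pairs.

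The 4 arms covered a wide span of levels. Averaged over the 36 samples, miR-139-5p stood at 9.59 (rank 78 of 469 from the top), miR-140-5p at 6.99 (rank 119), miR-140-3p at 3.96 (rank 234) and miR-139-3p at 3.06 (rank 278). In both hairpins the 5p arm was thus the more abundant product. The arms also differed in how well replicates agreed. The pooled within-group SD was 0.21 for miR-139-5p, 0.36 for miR-139-3p, 0.42 for miR-140-3p and 0.67 for miR-140-5p, against a median of 0.36 over all miRNAs. MiR-139-5p was thus among the most closely replicated miRNAs (percentile 9.81) and miR-140-5p among the most variable (percentile 97.0).

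**Figure D1:**
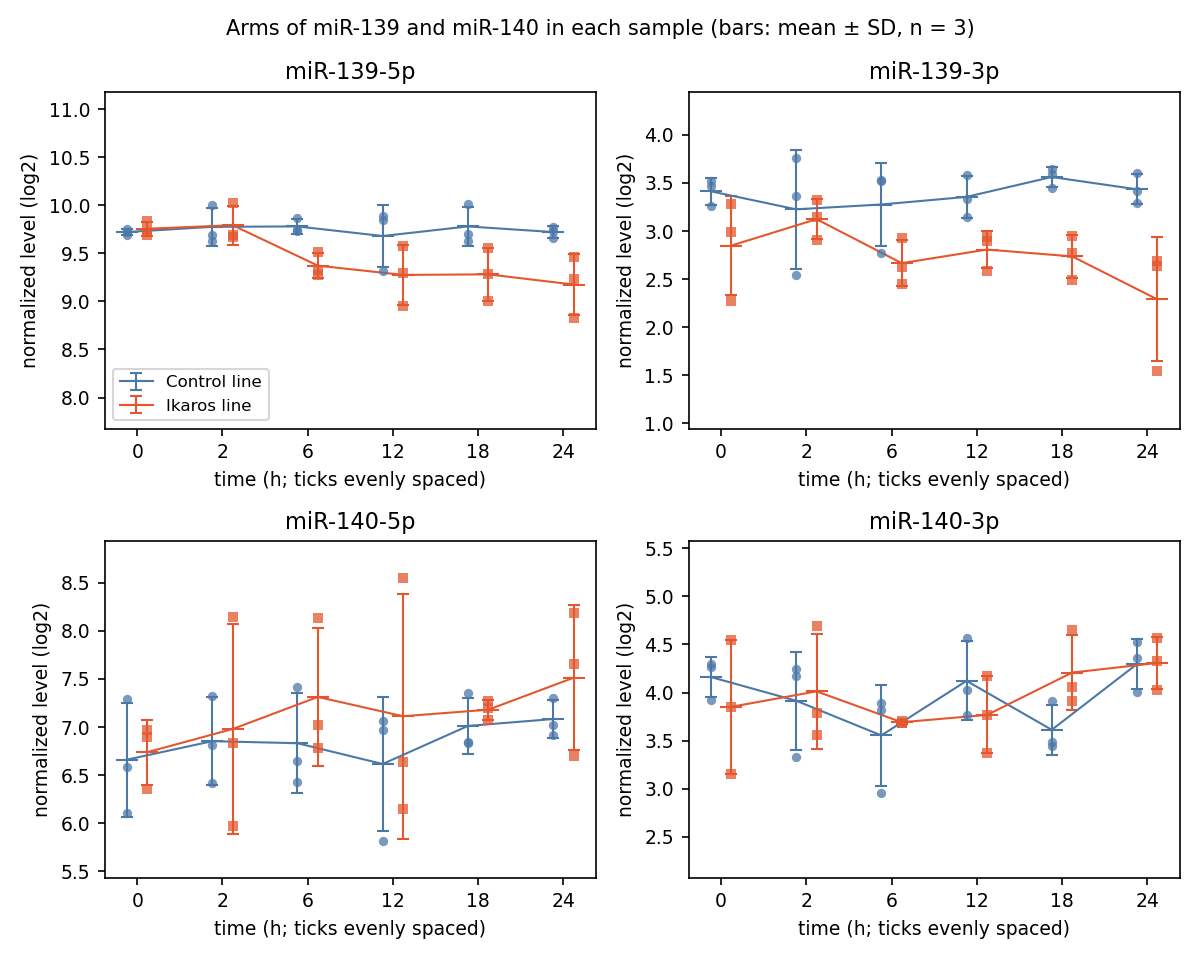
Normalized log2 level of each arm in every sample of the control line (blue circles) and the Ikaros line (red squares) at 6 times, spaced evenly on the x axis, with each panel spanning 3.5 log2 units. Joined marks with bars are the mean ± SD of 3 samples. MiR-139-5p lies below the control level from 6 h on and ends at 9.18 in the Ikaros line, while the miR-140-5p bars overlap at all times.

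MiR-139-5p, the abundant arm of its hairpin, had lower means in the Ikaros line from 6 h on and no change that passed the test in the control line. In the Ikaros line it measured 9.74, 9.69 and 9.84 at 0 h (replicates 1, 2 and 4), and at 2 h 10.02, 9.69 and 9.67. At 24 h it measured 8.83, 9.23 and 9.47, below every sample of 0 h and 2 h. The samples of 6 h measured 9.27, 9.52 and 9.32. In bulk samples fewer cells with an miRNA and less of it per cell cannot be told apart. Over the 6 times in order, the means were 9.76 ± 0.07, 9.79 ± 0.20, 9.37 ± 0.13, 9.28 ± 0.31, 9.28 ± 0.28 and 9.18 ± 0.32 (SD, n = 3 each). The widest step between neighbouring times thus lay between 2 h and 6 h, and the means from 6 h to 24 h differed from each other by less than the SD of the 24 h samples.

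From 0 h to 24 h the mean of miR-139-5p changed by -0.58 (SE 0.18, on the log2 scale), a ratio of 0.669, while the median change of all miRNAs was -0.05. This was the 101st lowest change of the 469. Since 0 h came from other culture batches, the change from 2 h to 24 h was also taken within culture batches. It was -1.19, -0.46 and -0.20 for replicates 1, 2 and 4. Its mean was -0.62 (SE 0.18), and without replicate 1 it was -0.33, or -0.68 without the 4 libraries with a miRNA above 19. The Ikaros samples of 24 h lay below those of 0 h without overlap, which held for 25.4% of all miRNAs, and below those of 2 h, which held for 22% of all miRNAs.

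In the control line, where the direction of the members played no part in their choice, no change of miR-139-5p passed the test. At 0 h the samples read 9.69, 9.75 and 9.72, and at the end of the course 9.73, 9.77 and 9.66. The 6 control means lay between 9.68 and 9.78. The difference of 24 h minus 0 h was 0.00 within rounding, with a 95% confidence interval of -0.37 to 0.37 (limma, Benjamini-Hochberg adjusted p = 1.00), and the moderated F-test over the 6 times gave an adjusted p of 0.994.

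Against the control line, miR-139-5p did not stand apart in the Ikaros line at 0 h (difference 0.03, SE 0.18 for each time) or at 2 h (0.02). From 6 h on, in order of time, the differences of log2 means were -0.41, -0.40, -0.50 and -0.55. The last of these corresponds to a ratio of 0.685. At 24 h it ranked 138th lowest of the 469, and the median line difference over all miRNAs was -0.07. Within culture batches the Ikaros sample was the lower one in 12 of 12 pairs from 6 h to 24 h, a count that 43 of the 469 miRNAs reached. The lines did not overlap at 6 h, 18 h and 24 h, which held in the lower direction for 17.5%, 25.4% and 30.3% of all miRNAs. At 12 h they did, where control replicate 2 (9.31) lay beside the Ikaros samples (9.58, 9.30 and 8.95), and without replicate 4 of both lines the 12 h difference was -0.16. Without the 4 libraries with a miRNA above 19 the differences of 2 h, 6 h and 12 h were 0.08, -0.36 and -0.43. Subtracting each sample's median raises every line difference at 24 h by 0.23, which left miR-139-5p at -0.31.

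The scarce arm, miR-139-3p, was also lower in the Ikaros line, but from a lower level and with more spread. In the Ikaros line it measured 3.28, 2.27 and 2.99 in the 0 h samples and 3.32, 2.91 and 3.15 in those of 2 h. The 24 h samples measured 2.69, 2.63 and 1.55. The samples of 24 h lay below all samples of 2 h and overlapped those of 0 h, where replicate 2 lay below every other sample of the line but one. In this line 22% of all miRNAs lay at 24 h below their 2 h samples without overlap. The change of miR-139-3p from 0 h to 24 h was -0.56 (SE 0.30), and without replicate 4, which holds the value of 1.55, it was -0.12. Within culture batches the change from 2 h to 24 h was -0.63, -0.27 and -1.60. Its mean of -0.83 (SE 0.30) became -0.45 without replicate 4 and -0.82 without the 4 libraries.

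The control line kept miR-139-3p between group means of 3.23 and 3.56. Its samples measured 3.46, 3.52 and 3.26 at 0 h, and at 24 h 3.41, 3.29 and 3.60. The change of 0.02 (95% confidence interval -0.58 to 0.62) had a limma Benjamini-Hochberg adjusted p of 0.991, and the F-test over time an adjusted p of 0.982. The samples of both ends of the course overlapped.

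Unlike the 5p arm, miR-139-3p had a lower mean in the Ikaros line at 0 h, by 0.56 (SE 0.30 for each time), although the groups overlapped. Most of this lay in replicate 2, without which the 0 h difference was -0.22. The differences at the 5 later times, in order, were -0.10, -0.61, -0.55, -0.83 and -1.14. At 24 h this was a ratio of 0.452 and the 52nd lowest value of the 469, and without replicate 4 it was -0.69. Leaving out a replicate gave -0.45 to 0.27 at 2 h and -0.84 to -0.38 at 6 h. Without the 4 libraries the differences of 2 h, 6 h and 12 h were -0.11, -0.50 and -0.32. The Ikaros sample was lower in 14 of the 15 pairs of 2 h to 24 h, a count that 57 miRNAs reached or passed. The lines were apart without overlap at 12 h, 18 h and 24 h, which held in the lower direction for 9.81%, 25.4% and 30.3% of all miRNAs. The line difference at 24 h beyond that at 0 h was -0.58 for each arm of miR-139, with an SE of 0.25 for the 5p arm and 0.42 for the 3p arm. For the 5p arm, leaving out a replicate gave -0.72 to -0.40. For the 3p arm it was 0.025 without replicate 4 and -1.16 without replicate 2.

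**Figure D2:**
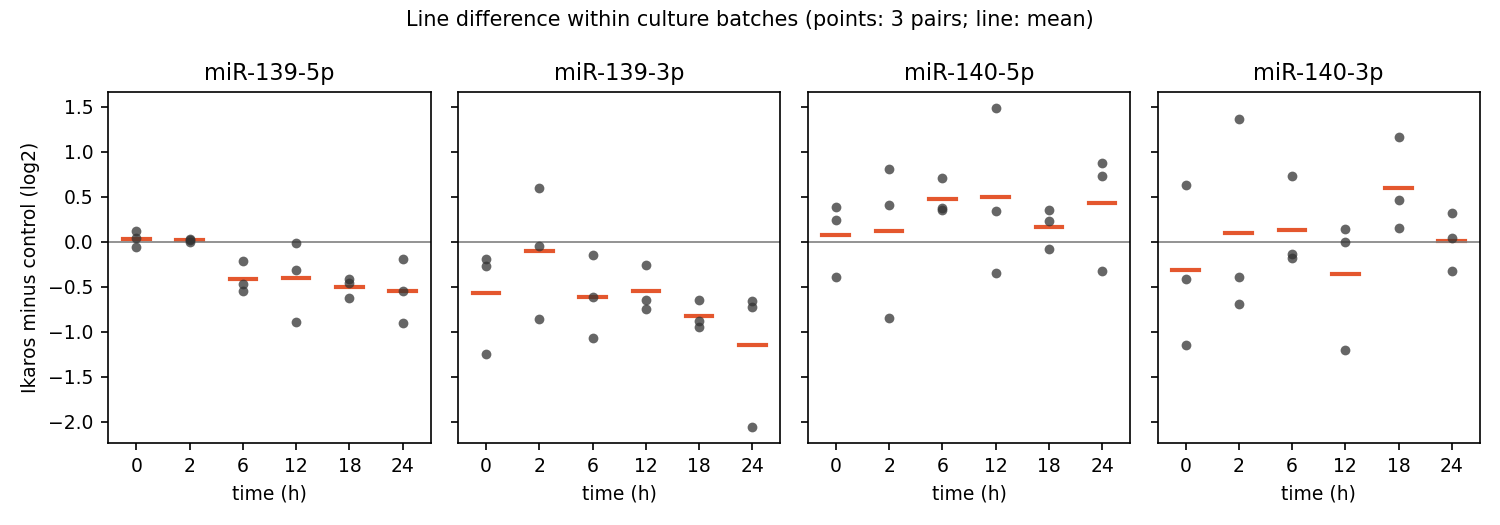
Ikaros minus control log2 level within each culture batch (points, 3 pairs per time) and their mean (line) at 6 times, spaced evenly, for the 4 arms. The miR-139 points lie below 0 at 6 h to 24 h in both arms (12 of 12 pairs each, a count that 43 of the 469 miRNAs reached), while the miR-140 points lie on both sides of 0.

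MiR-140-5p, the abundant arm of miR-140, had a higher mean at 24 h than at 0 h in the Ikaros line, with samples that overlapped. It measured 6.90, 6.97 and 6.35 at 0 h, and at 24 h 8.18, 7.66 and 6.70. Replicates 1 and 2 of 24 h lay above all samples of 0 h, and replicate 4 lay among them. The difference of means was 0.77 (SE 0.51), a ratio of 1.71 and the 58th highest of the 469, and its 95% confidence interval of -0.26 to 1.81 spans 0. Within culture batches the change from 2 h to 24 h was 2.21, 0.83 and -1.44, so replicate 4 moved the other way. The mean of 0.53 (SE 0.51) became -0.31 without replicate 1 and 1.11 without the 4 libraries with a miRNA above 19.

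The replicates of miR-140-5p were widely spread at the middle times of the Ikaros line. They measured 5.97, 6.83 and 8.14 at 2 h and 8.13, 6.78 and 7.02 at 6 h. The 12 h samples measured 6.15, 6.63 and 8.55. At 18 h they lay close together, at 7.27, 7.20 and 7.07. The highest value of each of 2 h, 6 h and 12 h came from a library with a miRNA above 19. In the control line the samples ranged from 5.81 to 7.42 over the 18 samples and in the Ikaros line from 5.97 to 8.55.

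Line differences of miR-140-5p did not exceed their SE. In order of time, they were 0.08, 0.13, 0.48, 0.50, 0.17 and 0.43 (SE 0.51 each). This SE comes from a fit without pairing, although same-batch samples of the lines deviated together (r = 0.66). Within pairs the 6 h differences were 0.71, 0.35 and 0.38 for replicates 1, 2 and 4. At every other time the pairs lay on both sides of 0. The lines overlapped at every time, and the Ikaros sample was the higher one in 11 of the 15 same-batch pairs of 2 h to 24 h, while 149 of the 469 miRNAs had at least as many such pairs. Without the 4 libraries with a miRNA above 19, the difference was -0.45 at 2 h, 0.07 at 6 h and -0.05 at 12 h. The same-batch samples of the other line stayed in. With the replicate number left out of both lines, it was -0.22 at 2 h (without replicate 4) and 0.37 at 6 h (without replicate 1). At 12 h the only pair without such a library, replicate 1, differed by 0.34. Leaving out a replicate gave values between -0.22 and 0.92 over the 6 times, and 0.21 to 0.81 at 24 h, which holds none of these libraries.

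In the control line miR-140-5p measured 7.29, 6.59 and 6.11 at 0 h, and at 24 h 7.31, 6.92 and 7.02. The change of 0.42 had a 95% confidence interval of -0.61 to 1.45 (limma, Benjamini-Hochberg adjusted p = 0.948). It was the 29th highest of the 469 control changes, and the F-test over time gave an adjusted p of 0.982. A control change of this size beside 0.77 in the Ikaros line left a difference between the lines' changes of 0.35 (SE 0.71), which was -0.11 without replicate 1 and 0.81 without replicate 4.

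MiR-140-3p, the scarce arm, had nearly equal means in both lines at 24 h. At 24 h it measured 4.57, 4.03 and 4.33 in the Ikaros line and 4.52, 4.36 and 4.01 in the control line, a difference of means of 0.01 (SE 0.33). At 0 h the Ikaros samples were 4.55, 3.16 and 3.85 and the control samples 3.92, 4.30 and 4.26. The Ikaros mean was 0.46 higher at 24 h than at 0 h (SE 0.33), with replicate 1 of 0 h beside the highest values of 24 h. The SD at 0 h was 0.70, and without replicate 2 the change was 0.25.

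In the control line miR-140-3p varied between group means of 3.55 at 6 h and 4.30 at 24 h. The change of 24 h minus 0 h was 0.13 (95% confidence interval -0.55 to 0.82, limma, Benjamini-Hochberg adjusted p = 0.950), and the F-test over time gave an adjusted p of 0.768. The lines were apart without overlap only at 18 h, where the Ikaros samples (4.65, 3.91 and 4.06) lay above the control samples (3.48, 3.44 and 3.91) by a margin smaller than the rounding of these values, with a difference of means of 0.60 (SE 0.33). At 18 h 22.2% of all miRNAs were higher in the Ikaros line without overlap, and without replicate 1 the difference was 0.31. The differences of 2 h, 6 h and 12 h were 0.10, 0.14 and -0.35, or 0.21, 0.14 and -0.33 without the 4 libraries. That of 2 h was -0.54 without replicate 1, and that of 12 h was 0.07 without replicate 4.

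Across the control line as a whole few miRNAs passed a test of change over time. The F-test over the 6 times called 2 of 469 miRNAs (0.426%) by limma with Benjamini-Hochberg adjustment. For 24 h minus 0 h the same test called 0 of 469 (0%), and 16 had an unadjusted p under 0.05. The 4 arms were not among the called miRNAs of either test, and their adjusted p-values for 24 h minus 0 h lay between 0.948 and 1.00. For 24 h minus 2 h, which share culture batches but mostly not sequencing batches, the limma test also called 0 of 469. The control changes were -0.05 for miR-139-5p, 0.21 for miR-139-3p and 0.23 for miR-140-5p. For miR-140-3p the control change was 0.38 (SE 0.33), beside 0.30 in the Ikaros line.

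Ordering the 12 groups by their mean placed the lines differently for each hairpin. For miR-139-5p the 4 lowest groups were the Ikaros samples of 24, 12, 18 and 6 h (9.18, 9.28, 9.28 and 9.37), and the other groups lay between 9.68 and 9.79. For miR-139-3p all 6 control groups (3.23 to 3.56) stood above all 6 Ikaros groups (2.29 to 3.12). For miR-140-5p the 4 highest groups were the Ikaros samples of 24, 6, 18 and 12 h (7.51, 7.31, 7.18 and 7.11), and the lowest was the control at 12 h (6.62). For miR-140-3p the lines were mixed, with Ikaros at 24 h (4.31) and control at 24 h (4.30) at the top and control at 6 h (3.55) at the bottom. In none of the 4 arms did any of the 11 steps between neighbours in this order exceed the larger SD of the neighbouring groups. The largest step of miR-139-5p, 0.31, separated the control at 12 h from the Ikaros samples at 6 h.

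The difference between the arms of one hairpin was examined next, because a scaling of the whole sample cancels in it. The arms of each hairpin were chosen for going the same way in the Ikaros line, so their difference there is not independent of the choice and is described without a test. All 129 names with both arms in the table were fitted together. The 5p arm was the higher one in 80 of them, and the median size of the difference was 3.03. MiR-139 had a mean difference, 5p minus 3p, of 6.37 ± 0.36 in the control line and 6.70 ± 0.41 in the Ikaros line (SD, n = 18 each), the 27th largest of the 129 pairs in size. MiR-140 had 2.90 ± 0.61 and 3.17 ± 0.94. On the linear scale the 3p arm made up 1.23% ± 0.29 of both miR-139 arms in the control line and 0.986% ± 0.23 in the Ikaros line. For miR-140 the share was 12.5% ± 4.79 in the control line and 11.4% ± 6.43 in the Ikaros line. Adapter ligation and the correction for GC content act on each arm separately, and their part in these shares was not tested.

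The arm difference of miR-139 overlapped between the lines at 0 h and 24 h. At 0 h it measured 6.46, 7.42 and 6.85 in the Ikaros line and 6.23, 6.23 and 6.46 in the control line. At 24 h it measured 6.14, 6.60 and 7.92 against 6.32, 6.48 and 6.06. The line difference was 0.60 at both times (SE 0.35, 95% confidence interval -0.11 to 1.31). The value of 0 h was 0.30 without replicate 2. That of 24 h was -0.034 without replicate 4, the number of the Ikaros sample at 7.92, and 0.35 with quantile normalization.

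For miR-140 the arm difference at 24 h was 3.61, 3.63 and 2.37 in the Ikaros line and 2.78, 2.56 and 3.01 in the control line. The line difference was 0.39 at 0 h and 0.42 at 24 h (SE 0.66 for each), with a 95% confidence interval of -0.92 to 1.76 at 24 h. Leaving out a replicate gave -0.18 to 1.09 at 0 h and 0.095 to 0.95 at 24 h, and quantile normalization gave 0.12 and 0.096. The widest group was Ikaros at 12 h, with 1.98, 2.87 and 5.18.

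In the control line, whose values played no part in the choice, the arm differences showed no change over time that passed the test. The F-test over the 6 times gave a limma Benjamini-Hochberg adjusted p of 0.965 for miR-139 and 0.914 for miR-140. It called 0 of 129 pairs (0%), and 15 had an unadjusted p under 0.05. These p-values do not show that the ratios were constant. The control means of 5p minus 3p lay between 6.22 and 6.55 for miR-139 and between 2.49 and 3.40 for miR-140.

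**Figure D3:**
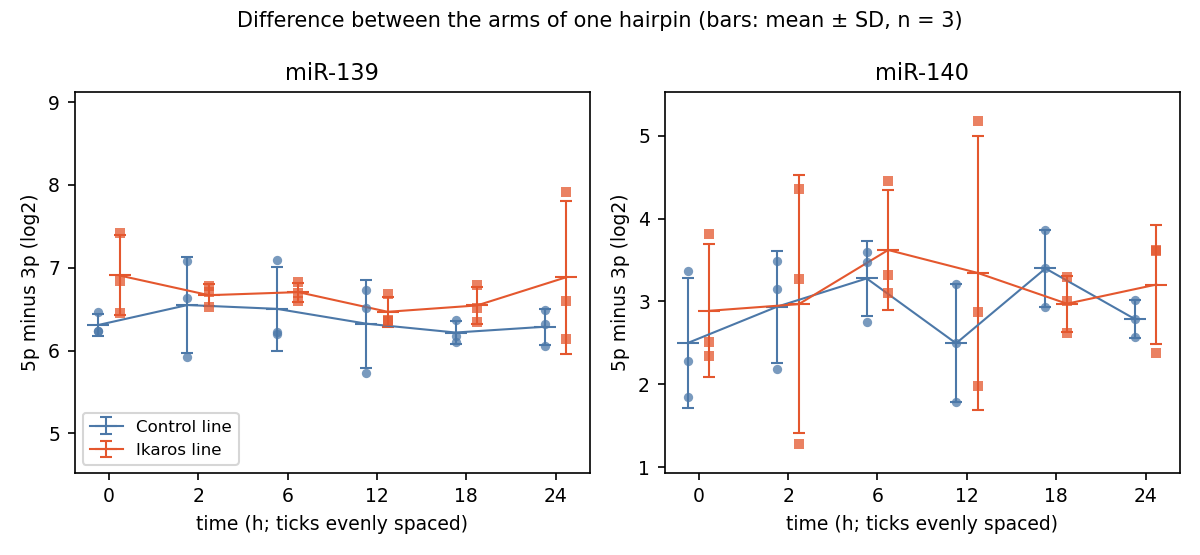
Difference of the log2 levels of the 5p and 3p arms in every sample of the control line (blue circles) and the Ikaros line (red squares) at 6 times, spaced evenly, with mean ± SD of 3 samples. The miR-139 difference has a mean of 6.37 in the control line and 6.70 in the Ikaros line. The miR-140 difference is more spread, up to 5.18 in 1 Ikaros sample of 12 h.

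The arms of one hairpin did not follow each other closely from sample to sample. Over the 36 samples the Pearson correlation of both arms was 0.51 for miR-139 and -0.12 for miR-140, against a median of 0.32 over the 129 pairs (ranks 39 and 113 from the top). After the group means were removed it was -0.05 for miR-139 and -0.22 for miR-140, with a median of 0.04. These correlations are descriptions over samples that share lines, times and batches. The arms of each hairpin were chosen for going the same way in the Ikaros line, which enters the values over the 36 samples. Over the 18 control samples the correlation of both arms was -0.13 for miR-139 and 0.04 for miR-140. In the change from 0 h to 24 h of the Ikaros line, the arms had the same sign in 92 of the 129 pairs (71.3%), of which 45 had both arms lower and 47 both higher. The members belong to these by their choice.

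The spread of miR-140-5p among replicates ran along an axis that many miRNAs shared. The first principal axis of all deviations from group means held 36.5% of the within-group variance, and the second 10.1%. The deviations of miR-140-5p correlated with the score on the first axis at r = 0.97 over the 36 samples, those of miR-139-5p at -0.69, of miR-140-3p at -0.26 and of miR-139-3p at -0.10. The members are part of the data from which the axis was drawn. With miR-140-5p itself, 79 other miRNAs had a within-group correlation above 0.5, with a median GC content of 45.5%, and 93 one below -0.5, with a median of 50%. The part of GC content in this was not tested.

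The abundant arms of both hairpins therefore tended to move in opposite ways also among replicates of one group. Their within-group correlation was -0.63, and over the 36 samples it was -0.60. Over the 18 samples of a line it was -0.68 in the Ikaros line but -0.24 in the control line. The hairpins were chosen for opposite directions in the Ikaros line. That choice enters the values over the 36 samples and over the Ikaros line, which therefore carry no weight as support. Between the lines, samples of the same culture batch and time deviated together for miR-140-5p (r = 0.66 over 18 pairs), as did their scores on the axis (r = 0.61). For miR-139-5p this correlation was 0.31, for miR-139-3p -0.17 and for miR-140-3p -0.52. When the axis was removed from all values, the Ikaros change of 24 h against 0 h went from 0.77 to 0.35 for miR-140-5p and from -0.58 to -0.49 for miR-139-5p. The line difference of miR-140-5p went from 0.48 to -0.05 at 6 h, but from 0.50 to 0.48 at 12 h and from 0.43 to 0.40 at 24 h. At 18 h it rose from 0.17 to 0.42. At 0 h it went from 0.08 to 0.04, and at 2 h from 0.13 to 0.18.

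**Figure D4:**
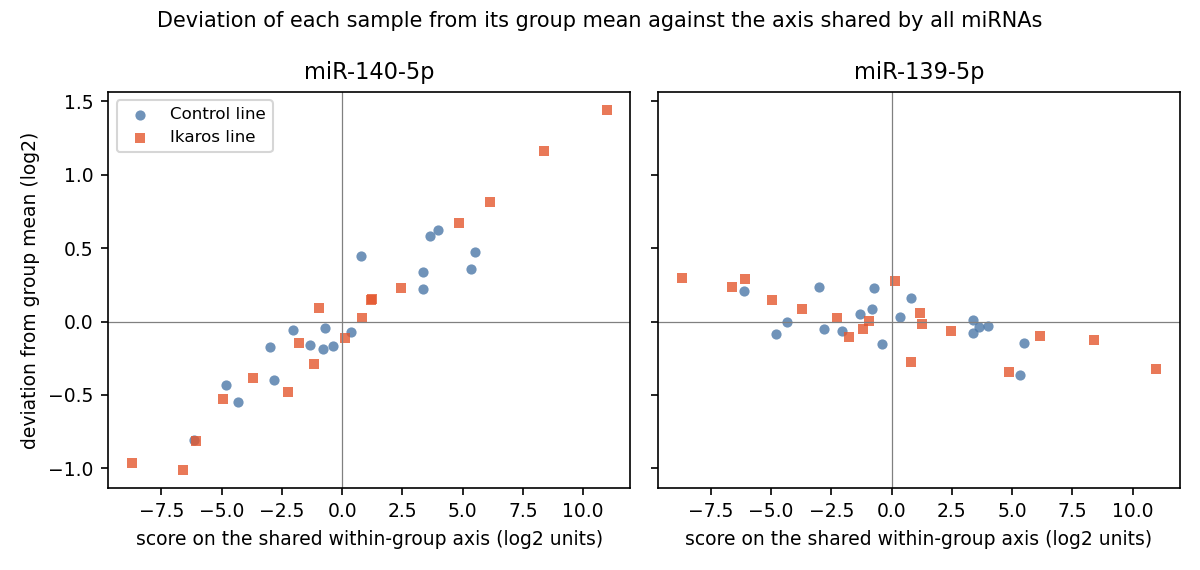
Deviation of each sample from its group mean (log2) for miR-140-5p and miR-139-5p against the score of the sample on the first axis of within-group deviation over 469 miRNAs, for the control line (blue circles) and the Ikaros line (red squares). MiR-140-5p rises along the axis in both lines (r = 0.97) and miR-139-5p falls along it (r = -0.69).

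The miRNAs whose levels ran most like each member were taken by Pearson correlation over the 36 samples. For miR-139-5p these were miR-34a-5p, a target of p53 (r = 0.83), let-7g-3p (0.81) and miR-467b-5p (0.79). All 3 had lower means at 24 h than at 0 h in the Ikaros line, by -0.74, -1.28 and -0.94. For miR-139-3p they were let-7f-1-3p (0.73), miR-320-3p (0.72) and let-7f-5p (0.71), and their within-group correlations were only 0.24, 0.11 and 0.29. Their Ikaros changes from 0 h to 24 h were -0.95, -0.69 and -0.09. The other arm of the hairpin was thus not among the 3 most alike for either miR-139 arm.

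For miR-140-5p the most alike were miR-186-5p (r = 0.93), miR-322-5p, which carries the seed of the miR-15 and miR-16 family (0.92), and miR-361-3p (0.91). Their within-group correlations were as high, at 0.96, 0.96 and 0.93. MiR-140-3p had no close companion, and its highest values were 0.44 with miR-222-3p, 0.43 with miR-1198-5p and 0.43 with let-7c-5p. All these samples share lines, times, culture batches and the correction by the authors, and no p-value is attached.

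Of the 391 miRNAs matched to the RefSeq table, 190 had all their hairpins within same-strand introns of protein-coding genes, 3 of the members among them. Without the members, 78 of the 187 had a lower and 109 a higher mean at 24 h than at 0 h in the Ikaros line, with a median change of 0.11. Over all 469 miRNAs, 247 were lower and 222 higher, with a median of -0.05. For the line difference at 24 h the 187 counted 81 lower and 106 higher, against 254 lower and 215 higher over all. The difference between these lists was not tested. The cartilage miRNAs miR-455 and miR-675, considered because miR-140 is abundant in cartilage, had 0 of 4 arms in the table. RNA of the host genes was not analysed here.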

How the data were processed

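Small RNA libraries of 36 samples (2 lines, 6 times, 3 replicates) were analysed from 1 deposited table of 469 miRNAs. Per their methods, the authors aligned reads to miRBase with Novoalign, counted with multiBamCov, filtered on 1 CPM in NOISeq, adjusted for GC content by cqn, applied TMM and ComBat, and averaged technical replicates. The deposited values are on a log2 scale, and depth is unknown. The submitters' processing notes name the build mm10. ComBat ran before deposit, so p-values do not carry its uncertainty.

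Each of the 12 groups had one mean in limma 3.58.1 (R 4.3.3; lmFit, eBayes with trend), on the values as deposited and, for 129 names with both arms, on 5p minus 3p. P-values were two-sided and adjusted by Benjamini-Hochberg over all 469 miRNAs or 129 pairs per contrast, with a threshold of 0.05, and the scripts were tested on simulated data. Groups came from the labels. The members and lists were chosen with earlier results of these data known, so the Ikaros course, the line differences of single arms and every arm difference that involves the Ikaros line are given without a test, although tests of the latter had been planned. Named miRNAs were the members, measured miRNAs that share a seed with one, the 3 with the largest Pearson correlation to each, and the cell type markers. Samples of both lines with the same number and time share a culture batch by the labels, which is where the pairing comes from. Their deviations correlated at r = 0.26 over all miRNAs and at 0.06 to 0.41 per time. The labels give separate culture batches of one line per construct, so p-values measure the spread between cultures. Sequences and introns come from RefSeq (GRCm38.p6) and GENCODE vM21, matched by name. Alternatives were sample medians subtracted, quantile normalization, each replicate number left out, a replicate block, a mean of at least 3, no variance trend and only the groups compared, and, added after seeing the data, removal of the shared axis and leaving out 4 libraries. Figures were drawn with matplotlib 3.10.9.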

Additional observations from a re-analysis of the deposited data

How the results depend on the processing

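None of the 4 arms and neither arm difference was called over time in the control line under any alternative run, the replicate block included (0 calls with it in each). With the replicate block the control F-test called 2 miRNAs and 0 pairs of arms, as without it. In that F-test the block followed the replicate number, which joins a culture batch of 0 h with a different one of the later times. Other counts moved. The control F-test called 2 miRNAs, and 8 with the shared axis removed, 0 with a mean of at least 3, 1 with only the groups compared, 1 without the 4 libraries above 19, and 0 to 3 without a replicate. On arm differences it called 0 pairs, and 2 with the axis removed. In the control line, 24 h minus 0 h changed sign for miR-139-5p to 0.094 with the axis removed, 0.094 with quantile normalization and 0.012 with sample medians subtracted (-0.020 to 0.032 without a replicate). It changed sign for miR-139-3p to -0.016 with quantile normalization (-0.14 to 0.15 without a replicate) and for miR-140-5p to -0.00098 with the axis removed, and for miR-140-3p it was -0.10 to 0.33 without a replicate. Without a replicate, the line difference of 5p minus 3p was 0.30 to 0.78 at 0 h and -0.034 to 0.99 at 24 h for miR-139, and -0.18 to 1.09 and 0.095 to 0.95 for miR-140. MiR-139-5p at 24 h, Ikaros minus control, moved from -0.55 to -0.31 with sample medians subtracted. For miR-139-3p, leaving out a replicate gave -1.02 to -0.12 for the Ikaros change of 24 h against 0 h and -1.39 to -0.69 for the line difference at 24 h. Of the 3 miRNAs most like each member, Spearman correlation kept 1 for miR-139-5p, 1 for miR-140-5p and 1 for miR-140-3p, the 12 group means 1 for miR-139-5p, 2 for miR-139-3p, 2 for miR-140-5p and 0 for miR-140-3p, and the 18 control samples 0, 0, 2 and 1 in the order miR-139-5p, miR-139-3p, miR-140-5p and miR-140-3p. The cause of these changes was not tested. With 3 samples a group and no counts, differences of miR-140-5p under about 1 log2 unit could not be told from replicate spread in the fit without pairing.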
